A study of Mus musculus with 12 samples.

Results

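The 10 genes described here encode interleukins, tumor necrosis factor and related secreted cytokines: *Il1a*, *Il1b*, *Il1rn*, *Tnf*, *Il10*, *Osm*, *Lif*, *Il6*, *Il12b* and *Tgfb1*. They were taken by their symbols in GENCODE M21 from a table of 53379 genes, and 7 of the 10 were among the 12386 genes that passed a filter on low counts and were tested. RNA was sequenced from bone marrow-derived macrophages (BMDMs) of 4 C57BL/6J mice. The mice were male and 8 to 20 weeks old. Bone marrow cells were grown for a week in RPMI with 10% FCS and 20% medium conditioned by L929 cells, a fibroblast line that secretes the macrophage growth factor CSF1, and all groups stayed in that medium. From every mouse, 1 culture stayed untreated and others received 1 μM fenoterol, an agonist of the β2-adrenergic receptor (B2AR), for either 1 h or 4 h, making 12 libraries in 3 groups of 4. No group received lipopolysaccharide or another inflammatory stimulus according to the labels, and 1 untreated group served for both times.

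B2AR couples to the stimulatory G protein and raises cAMP, which activates protein kinase A and transcription factors of the CREB family. Macrophages are a main source of these cytokines. IL-1α, IL-1β, TNF, IL-6 and IL-12 promote inflammation, whereas IL-10, the IL-1 receptor antagonist and TGF-β1 restrain it. Oncostatin M and LIF belong with IL-6 to the family of cytokines that signal through gp130. Several of these proteins are not active as made: IL-1β is cut by caspase-1, TNF is shed from the membrane by ADAM17, and TGF-β1 is held in a latent complex, so that transcript levels do not measure active protein.

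The count per library summed to 14580533 to 24153284, and the 10 most abundant genes took 9.76% to 11.1% of it. All 8 macrophage markers examined passed the filter, and their summed level was 38610 to 40208 CPM (counts scaled to 1 library total) without treatment, 35991 to 41418 after 1 h and 37028 to 41007 after 4 h. Most of this was *Lyz2* (20056.5 to 26327 over all libraries), and single markers changed at an adjusted p under 0.05 by edgeR. *Cd14* was higher at both times (log2 fold change 2.39 and 2.52), and *Fcgr1* (0.72) and *Itgam* (0.42) at 4 h. *Mertk* was lower at both times (-0.20 and -1.51), and *Adgre1* (-0.21), *Csf1r* (-0.26) and *Cd68* (-0.22) at 4 h. Markers of neutrophils and their precursors summed to 30.8 to 61.7, 30.9 to 54.1 and 31.3 to 52.5 CPM in the same order. Most of this was *S100a9* (12.0 to 22.5 over all libraries), *Ngp* (7.36 to 16.5), *Ltf* (4.39 to 10.7) and *S100a8* (4.31 to 8.75). None of these had an adjusted p under 0.05 by edgeR in any comparison, and *Ly6g* was at 0.0542 or less in every library. Markers of fibroblasts and stromal cells summed to 21.9 to 66.8, 32.9 to 57.1 and 25.2 to 64.8, with *Lum* at 0. Nearly all of it was *Col1a1* (9.27 to 24.9 over all libraries), *Col1a2* (10.1 to 35.3) and *Col3a1* (2.24 to 7.89). No adjusted p of these collagen genes was under 0.05 by edgeR in any comparison. Summed levels did not separate the groups for T and NK cell markers (29.0 to 39.2, 27.7 to 38.9 and 22.2 to 38.1, nearly all of it *Cd4*, with *Cd8a* at 0), B cell markers (7.06 to 10.3, 6.29 to 8.26 and 7.92 to 12.0, nearly all of it *Cd79b*) or dendritic cell markers (0.994 to 2.08, 0.925 to 1.27 and 0.437 to 1.41). The summed level of the 8 markers of mast cells and basophils was higher at 1 h, at 1.31 to 1.98 CPM against 0.281 to 0.930 before treatment and 0.162 to 0.787 at 4 h. Of these markers only *Kit* passed the filter, *Gata2* was at 0.451 to 1.09 at 1 h, *Cpa3* was at 0.146 or less and *Mcpt4* at 0, and their part in the rises at 1 h was not tested.

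To show what lies upstream of members that changed, the 250 bases before the RefSeq start (GRCm38.p6) are given for *Il1b* and its neighbour *Il1a*, which both rose, for the antagonist *Il1rn* at the most upstream of its starts, and for *Tnf*, which was lower at 4 h. *Osm* and *Il10*, which also changed, had no entry in the promoter table used. Each is written 5′ to 3′ on the strand of the gene, with an AP-1 motif (TGANTCA) or a TATA box (TATAAA) in capitals.
Il1b, chr2:129371140-129371389, minus strand: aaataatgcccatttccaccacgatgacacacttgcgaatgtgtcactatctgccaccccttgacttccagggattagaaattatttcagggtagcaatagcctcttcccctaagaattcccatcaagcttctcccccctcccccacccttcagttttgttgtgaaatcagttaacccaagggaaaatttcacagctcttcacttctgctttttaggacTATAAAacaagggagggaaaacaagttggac
Il1a, chr2:129309973-129310222, minus strand: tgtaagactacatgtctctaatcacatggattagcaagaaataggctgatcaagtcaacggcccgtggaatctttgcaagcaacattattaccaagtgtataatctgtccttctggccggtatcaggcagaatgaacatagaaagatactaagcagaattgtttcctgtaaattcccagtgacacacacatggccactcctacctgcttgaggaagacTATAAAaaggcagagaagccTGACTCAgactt
Il1rn, chr2:24336610-24336859, plus strand: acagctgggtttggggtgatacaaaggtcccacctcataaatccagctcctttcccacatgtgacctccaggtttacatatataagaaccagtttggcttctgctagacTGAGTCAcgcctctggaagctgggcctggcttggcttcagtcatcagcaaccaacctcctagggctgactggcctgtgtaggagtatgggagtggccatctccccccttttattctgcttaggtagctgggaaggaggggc
Tnf, chr17:35202008-35202257, minus strand: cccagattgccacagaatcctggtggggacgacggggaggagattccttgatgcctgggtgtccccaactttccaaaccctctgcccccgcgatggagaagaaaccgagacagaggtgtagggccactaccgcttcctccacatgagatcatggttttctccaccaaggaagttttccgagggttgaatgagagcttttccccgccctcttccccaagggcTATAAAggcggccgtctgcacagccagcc
The TATA box begins at -31 in *Il1b*, -32 in *Il1a* and -29 in *Tnf*, and the AP-1 motif begins at -12 in *Il1a* and at -141 in *Il1rn*, where -1 is the base before the start. Both strands of the 300 bases from 250 before to 50 after the start were searched for these motifs, the cAMP-responsive element (CRE, TGACGTCA), its 5-letter core (TGACG) and a 10-letter NF-κB form. Of 32851 promoters in the RefSeq table, 13.6% held the TATA box, 7.81% the AP-1 motif, 1.79% the CRE, 20.8% its core and 1.63% the NF-κB form. Each full CRE also counts as a core. The table was matched for 8 members, all but *Osm* and *Il10*, and none of their windows held the full CRE. The core, written as CGTCA on the gene's strand, occurred in *Il6* only (at -135), which also held an AP-1 motif (at -249) and the NF-κB form (at -44), and *Lif* held an AP-1 motif (at -228). A later start of *Il1rn*, at 24345371, had the NF-κB form at -51 and a TATA box on the opposite strand at 15, and the windows of *Tgfb1* and *Il12b* held none of the motifs. These matches describe the letters only, and counts per gene do not tell which start of *Il1rn* was used.

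The first question was which cytokine transcripts B2AR stimulation changed within 1 h. By edgeR's quasi-likelihood test with Benjamini-Hochberg adjustment over all genes tested, 5 of the 7 tested members were higher at 1 h (*Il1b*, *Osm*, *Il1a*, *Il1rn* and *Tgfb1*), 0 were lower, and *Tnf* and *Il10* did not pass an adjusted p of 0.05. Over all genes, 20.1% passed at 1 h, 10.0% higher and 10.1% lower. Lower at an unadjusted p under 0.05 was 1 member, *Tnf*, and DESeq2 and limma-voom also called 0 lower. With the mouse as a block *Tnf* was called lower beside the same 5 higher. When libraries were scaled by their size alone, 4 were called higher and *Tnf* lower. In the fit of only the 2 groups, 3 of 6 members tested were called, all higher. *Il1a* passed the filter through the treated libraries alone, so that it had to differ, and of the other 6 members tested 4 were higher at 1 h.

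At 4 h, *Il1b*, *Osm*, *Il1rn* and *Il1a* were higher than in untreated BMDMs, *Tnf* and *Il10* were lower, and *Tgfb1* was not called, where 40.0% of all genes passed, 19.7% higher and 20.4% lower. Without *Il1a*, 3 of the other 6 members tested were higher at 4 h and 2 lower. The comparison of 4 h with 1 h found *Il1b*, *Osm*, *Tnf*, *Il10* and *Tgfb1* lower at 4 h, 0 higher (0 at an unadjusted p under 0.05, and 0 by DESeq2 and limma-voom), and *Il1a* and *Il1rn* not called. In that comparison 38.5% of all genes passed, 18.7% higher and 19.8% lower. The median log2 fold change of the 7 tested members was 1.35 at 1 h, 1.42 at 4 h and -0.84 between the times, against -0.0049, 0.0042 and 0.0074 over all genes tested, and without *Il1a* it was 0.79, 0.68 and -0.86. The 2 comparisons with untreated BMDMs share the untreated libraries, and those with 1 h share the libraries at 1 h.

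**Figure D1:**
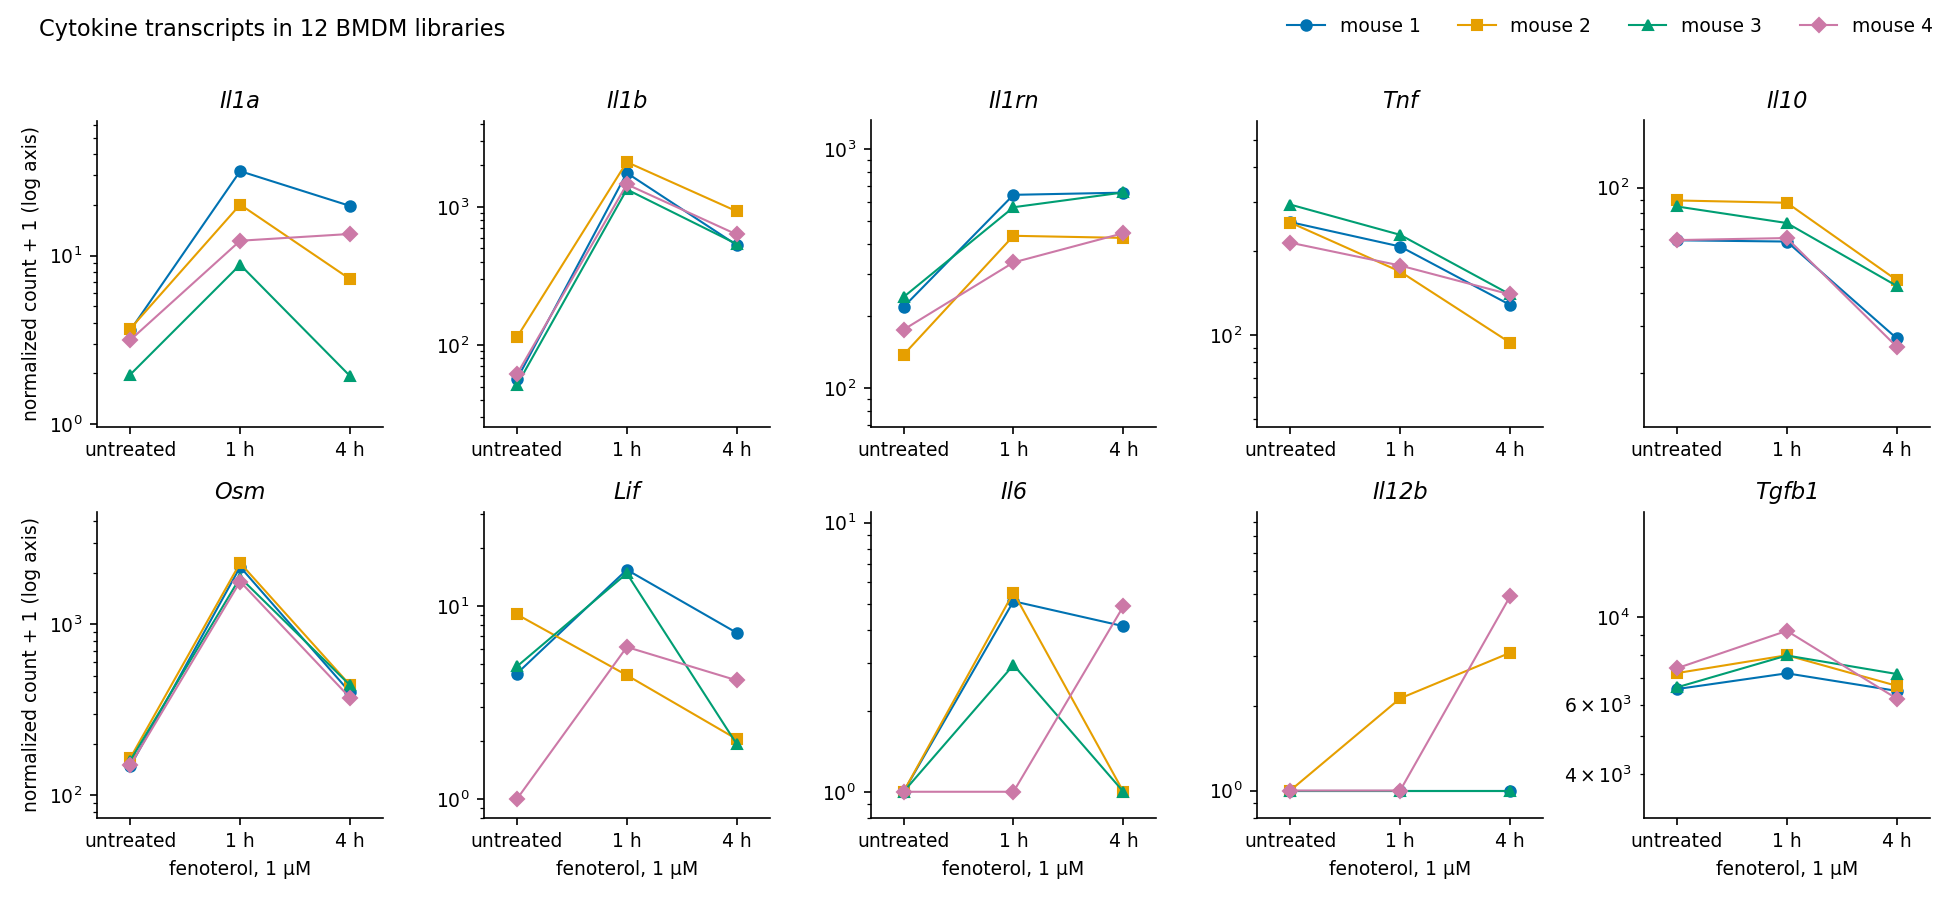
Normalized count plus 1 (vertical log axis, its range set for each gene) of the 10 cytokine genes in untreated BMDMs and after 1 h or 4 h of 1 μM fenoterol; each line joins the 3 libraries of 1 mouse. *Il1b* and *Osm* peaked at 1 h in all 4 mice, *Tnf* and *Il10* were lowest at 4 h, and *Il6*, *Il12b* and *Lif* stayed under 15 normalized counts.

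*Il1b* (ENSMUSG00000027398, chromosome 2 of GRCm38, 129364570 to 129371139, minus strand), which encodes the IL-1 receptor agonist IL-1β, had the largest fold change of the 7 tested members at 1 h and at 4 h. Its normalized counts in mice 1 to 4 were 55.4, 112, 50.1 and 60.2 in untreated BMDMs, 1761, 2112, 1337 and 1456 at 1 h, and 528, 928, 537 and 630 at 4 h. The groups did not overlap, and mouse 2 was the highest of the 4 mice in each group. At 1 h *Il1b* was 24.7-fold higher (95% confidence interval 16.9 to 36.2, log2 fold change 4.63 ± 0.26, standard error, adjusted p = 4.39e-09 by edgeR). It was still 9.73-fold higher at 4 h (6.64 to 14.3, log2 fold change 3.28 ± 0.26, adjusted p = 1.20e-07). From 1 h to 4 h it fell by 1.35 on the log2 scale (standard error 0.20, adjusted p = 0.000102), in 4 of 4 mice. An annotated opposite-strand gene, *Il1bos*, covers 1.31% of its exon bases and had 10 counts in all 12 libraries, against 9421 of *Il1b*.

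*Il1a* (ENSMUSG00000027399, chromosome 2, 129299610 to 129309972, minus strand) lies 54597 bases from *Il1b* and encodes IL-1α, an agonist of the same receptor that is active without caspase-1. Its raw counts were 3, 2, 1 and 2 in untreated BMDMs, 30, 17, 8 and 11 at 1 h, and 18, 6, 1 and 16 at 4 h. All libraries at 1 h lay above all untreated libraries, whereas mouse 3 at 4 h was within the untreated range. The ratio of summed counts, scaled for library size, was 8.27 at 1 h (95% exact interval 3.96 to 20.0) and 4.63 at 4 h (2.14 to 11.4), intervals that cover counting error only. The adjusted p from edgeR was 0.00970 at 1 h and 0.0435 at 4 h. The call at 4 h was lost in limma-voom (adjusted p = 0.201), on leaving out any 1 of the 4 untreated libraries (0.0670 to 0.106), 1 h mouse 2 (0.0526), 4 h mouse 1 (0.135) or 4 h mouse 4 (0.101). The opposite-strand gene *Gm14023* covers 11.2% of the exon bases of *Il1a* and had 2 to 5 counts per untreated library, 4 to 5 at 1 h and 5 to 15 at 4 h, and since the strand option of the counting is not stated, reads in the shared bases may belong to either gene.

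*Il1rn* (ENSMUSG00000026981, chromosome 2, 24336853 to 24351494, plus strand) encodes the IL-1 receptor antagonist, which occupies the receptor without signalling. Normalized counts were 217, 137, 239 and 174 in untreated BMDMs of mice 1 to 4, 642, 432, 569 and 334 at 1 h, and 655, 423, 657 and 443 at 4 h. Every treated library lay above every untreated one, and the libraries at 1 h and 4 h overlapped. *Il1rn* was 2.56-fold higher at 1 h (1.83 to 3.57, log2 fold change 1.35 ± 0.22, adjusted p = 0.000475) and 2.81-fold higher at 4 h (2.02 to 3.92, log2 fold change 1.49 ± 0.22, adjusted p = 8.17e-05). The log2 difference between the times was 0.14, with an interval from -0.31 to 0.59 (adjusted p = 0.651), and turned to -0.011 without 1 h mouse 4.

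Since agonist and antagonist compete for 1 receptor, their levels were also set side by side per kilobase of merged exons, as a description with no test. Merged exons held 5535 bases in *Il1rn* (6 transcripts) and 1907 in *Il1b* (3 transcripts), so the size of the ratio depends on these annotated lengths. The ratio of *Il1rn* to *Il1b* in mice 1 to 4 was 1.35, 0.418, 1.64 and 0.997 in untreated BMDMs, 0.126, 0.0705, 0.147 and 0.0790 at 1 h, and 0.427, 0.157, 0.421 and 0.242 at 4 h. In each mouse it was lowest at 1 h and lay at 4 h between the other two values. Mouse 2, with the most *Il1b* and, untreated, the least *Il1rn*, had the lowest ratio in each group.

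**Figure D2:**
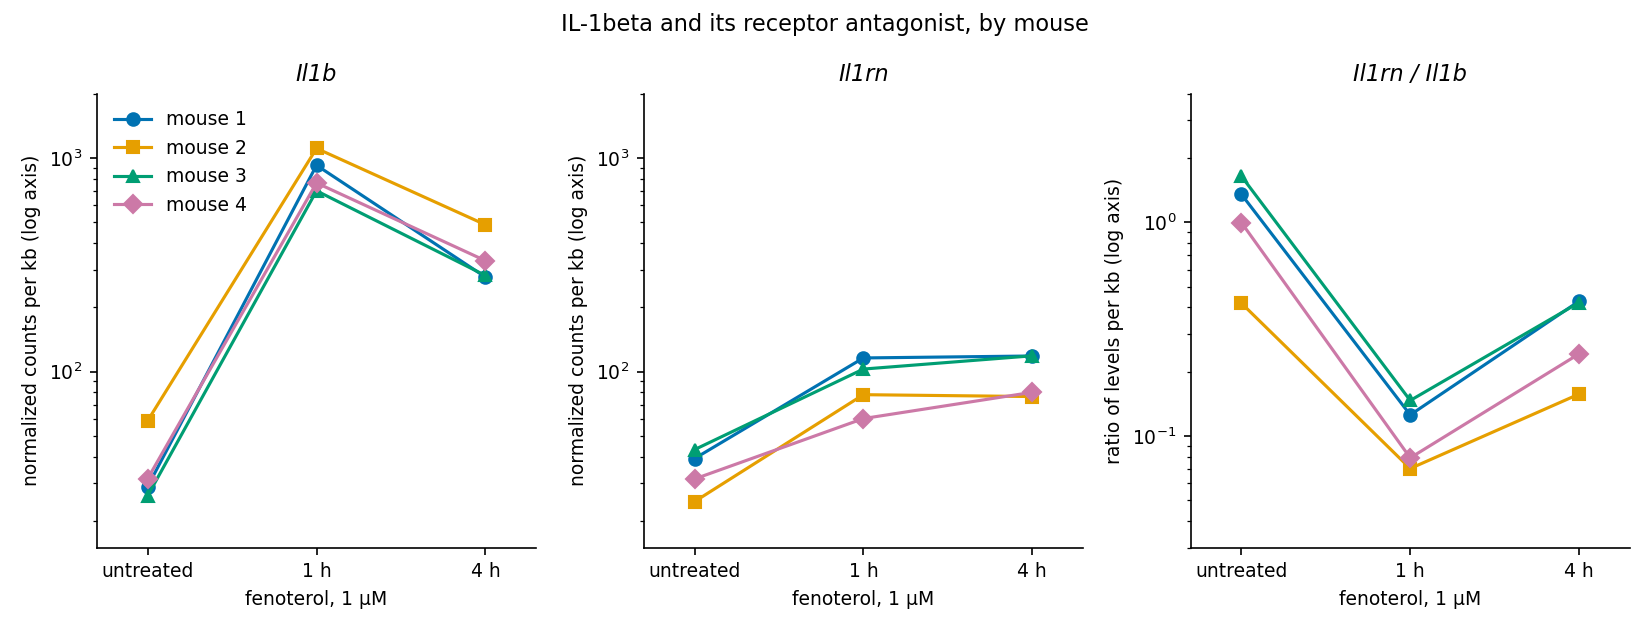
Levels of *Il1b* and *Il1rn* in normalized counts per kilobase of merged exons and the ratio of the latter to the former (log axes), with 1 line per mouse. *Il1b* rose from a mean of 36.5 to 874 per kilobase within 1 h and *Il1rn* from 34.6 to 89.3, so that the ratio was 0.0705 to 0.147 at 1 h and 0.157 to 0.427 at 4 h.

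*Osm* (ENSMUSG00000058755, chromosome 11, 4236420 to 4241026, plus strand) encodes oncostatin M, a product of activated myeloid cells that signals through gp130 paired with the OSM or LIF receptor. Normalized counts in mice 1 to 4 were 146, 163, 158 and 148 in untreated BMDMs, 2166, 2283, 1875 and 1777 at 1 h, and 398, 439, 438 and 370.0 at 4 h. The groups lay far apart relative to the spread between mice, with a coefficient of variation of 5.24%, 11.8% and 8.17% in turn. *Osm* was 13.2-fold higher at 1 h (11.4 to 15.2, log2 fold change 3.72 ± 0.095, adjusted p = 1.61e-12), and by p-value it ranked 8 of the 12386 genes tested. At 4 h it was 2.67-fold higher than in untreated BMDMs (2.32 to 3.08, log2 fold change 1.42 ± 0.096, adjusted p = 2.43e-08), after a drop of 4.93-fold from 1 h (adjusted p = 1.77e-10).

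*Lif* (ENSMUSG00000034394, chromosome 11, 4257557 to 4272514, plus strand), whose product keeps stem cells undifferentiated, lies 16530 bases from *Osm* but had few counts. Its raw counts in mice 1 to 4 were 4, 6, 4 and 0 in untreated BMDMs, 14, 3, 14 and 5 at 1 h, and 6, 1, 1 and 4 at 4 h. The groups overlapped, and mouse 2 had fewer counts at 1 h than untreated. The ratio of summed counts was 2.58 at 1 h (95% exact interval 1.36 to 5.18) and 0.774 at 4 h (0.327 to 1.80), and in a fit without the filter the adjusted p was 0.345 and 0.832.

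*Il6* (ENSMUSG00000025746, chromosome 5, 30013114 to 30019981, plus strand), the founding gp130 cytokine, had 0 counts in all 4 untreated libraries, 4, 4, 2 and 0 at 1 h, and 3, 0, 0 and 5 at 4 h. Without the filter, the adjusted p-values from edgeR were 0.0849 for 1 h and 0.0931 for 4 h against untreated. *Il12b* (ENSMUSG00000004296, chromosome 11, 44400063 to 44414033, plus strand), which encodes the p40 chain shared by IL-12 and IL-23, had 0 counts untreated, 1 in all at 1 h (mouse 2), and 0, 2, 0 and 5 at 4 h (adjusted p = 0.111 at 4 h without the filter). Changes of *Lif*, *Il6* and *Il12b* thus did not pass the adjusted test, and the part that depth or the spread between mice had in this was not tested. The genes of the partner chains of p40, *Il12a* and *Il23a*, had 0 and 2 counts in the 12 libraries.

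*Tnf* (ENSMUSG00000024401, chromosome 17, 35199381 to 35202007, minus strand) encodes tumor necrosis factor, made as a membrane protein and cleaved by ADAM17. Normalized counts in mice 1 to 4 were 253, 252, 292 and 213 in untreated BMDMs, 206, 168, 227 and 176 at 1 h, and 127, 92.8, 139 and 139 at 4 h. At 4 h all libraries lay below all others, while those at 1 h overlapped the untreated ones. *Tnf* was 50.6% lower at 4 h (log2 fold change -1.02 ± 0.15, adjusted p = 6.00e-05) and 35.9% lower than at 1 h (log2 fold change -0.64 ± 0.15, adjusted p = 0.00330). At 1 h it was 22.9% below untreated, in 4 of 4 mice, with an adjusted p of 0.0862. This became 0.0174 with the mouse as a block, 0.0409 with scaling by library size only and 0.0496 without 4 h mouse 2. In bulk cultures, less RNA per cell and fewer cells that make a transcript cannot be told apart.

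*Il10* (ENSMUSG00000016529, chromosome 1, 131019845 to 131024974, plus strand), whose product is the main anti-inflammatory interleukin of macrophages, was lower at 4 h and not called at 1 h. Normalized counts were 62.3, 88.4, 83.9 and 62.4 in untreated BMDMs of mice 1 to 4, 61.6, 86.6, 72.5 and 63.5 at 1 h, and 26.0, 43.8, 41.6 and 24.1 at 4 h. Mice 2 and 3 were above mice 1 and 4 in each group, and the group at 4 h lay apart from both others. At 1 h the log2 fold change was -0.059, with an interval from -0.51 to 0.39 (adjusted p = 0.897). At 4 h *Il10* was 54.3% lower than untreated (log2 fold change -1.13 ± 0.22, adjusted p = 0.000916) and 52.4% lower than at 1 h (log2 fold change -1.07 ± 0.22, adjusted p = 0.00160).

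*Tgfb1* (ENSMUSG00000002603, chromosome 7, 25687002 to 25705077, plus strand) encodes TGF-β1, which is secreted in a latent complex. It had 6568, 7207, 6633 and 7412 normalized counts in untreated BMDMs of mice 1 to 4, 7198, 7995, 7984 and 9215 at 1 h, and 6498, 6693, 7169 and 6214 at 4 h. At 1 h it was higher in 4 of 4 mice by a fold change of 1.16 (1.04 to 1.30), and mouse 1 at 1 h was within the untreated range. The adjusted p of this rise was 0.0483. It was not under 0.05 in limma-voom (0.050), with scaling by library size only (0.179), in a fit of only the 2 groups (0.0575), or without any 1 of 9 libraries (0.0505 to 0.144): untreated mice 1, 2 and 3, 1 h mice 2, 3 and 4, and 4 h mice 1, 2 and 4. From 1 h to 4 h *Tgfb1* fell by 0.29 on the log2 scale (standard error 0.073, adjusted p = 0.00660, 0.0521 with scaling by library size only).

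**Figure D3:**
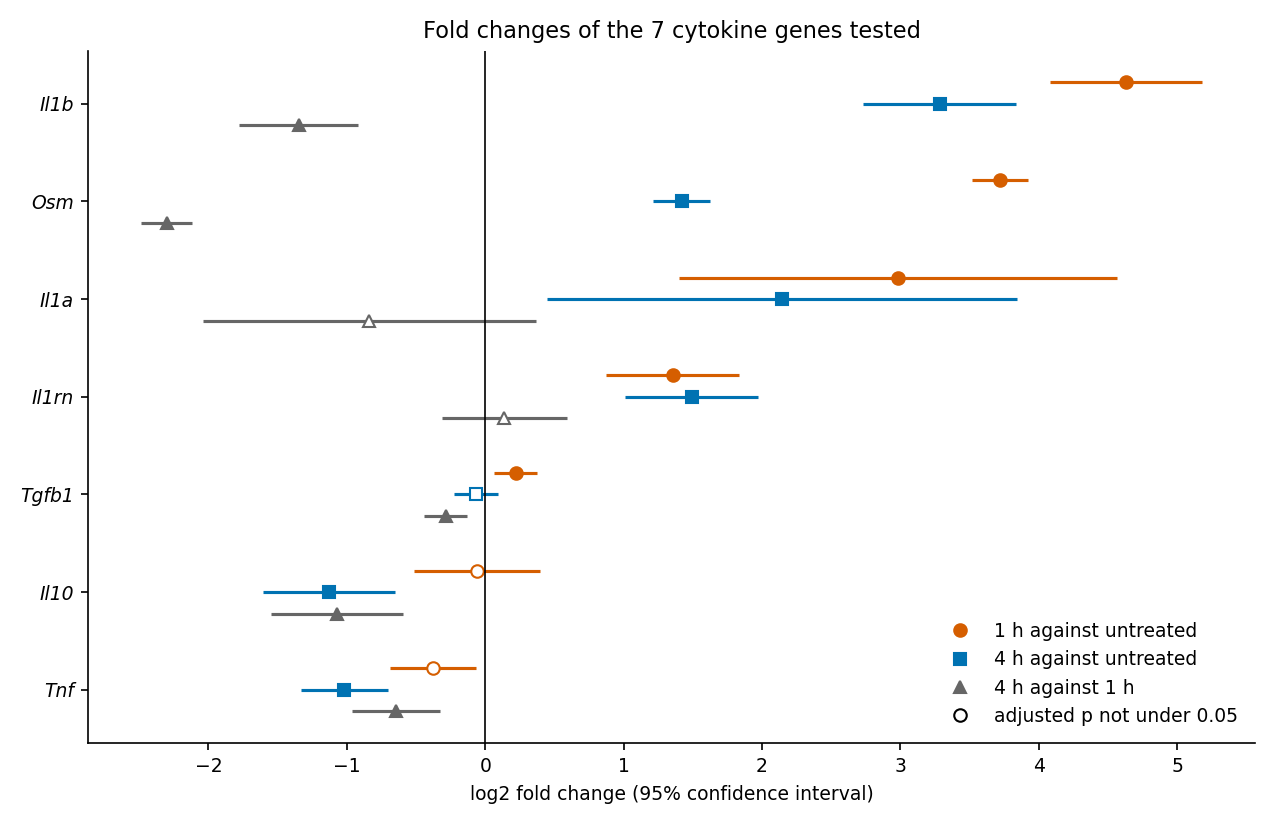
Log2 fold changes (horizontal axis) of the 7 tested cytokine genes with 95% confidence intervals from edgeR, in 3 comparisons; filled symbols have an adjusted p under 0.05. *Il1b* and *Osm* lie far to the right at 1 h (4.63 and 3.72) and nearer to 0 at 4 h (3.28 and 1.42), while *Tnf* and *Il10* lie to the left at 4 h (-1.02 and -1.13).

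Levels of different genes were compared in normalized counts per kilobase of merged exons, so that the order depends on the annotated lengths. In untreated BMDMs the order was *Tgfb1* (1379 ± 83.0, SD, n = 4), *Tnf* (154 ± 19.7), *Osm* (67.8 ± 3.55), *Il10* (56.7 ± 10.6), *Il1b* (36.5 ± 15.2), *Il1rn* (34.6 ± 8.23), *Il1a* (1.06 ± 0.40) and *Lif* (0.882 ± 0.756), with *Il6* and *Il12b* at 0. The ranges over mice overlapped between *Osm* and *Il10*, *Il10* and *Il1b*, *Il1b* and *Il1rn*, and *Il1a* and *Lif*, but not between *Tgfb1*, *Tnf* and *Osm*. At 1 h *Osm* (891 ± 105) and *Il1b* (874 ± 182) came next to *Tgfb1* (1606 ± 165), with ranges that overlapped each other, and above *Tnf* (119 ± 16.8). The level of *Il1b* exceeded that of 28.8% of tested genes with a known length without fenoterol, 91.8% at 1 h and 79.0% at 4 h. For *Osm* these shares were 41.0%, 92.0% and 64.7%, and for *Tgfb1* 95.6%, 96.0% and 95.5%.

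Receptor chains of these cytokines changed as well. Of 16 chains listed, 15 were tested. Of these, 4 were higher and 3 lower at 1 h, and 4 were higher and 7 lower at 4 h, where 20.1% and 40.0% of all genes tested were called in either direction. With the mouse as a block, 6 were higher and 4 lower at 1 h, and 5 higher and 8 lower at 4 h. That fit called 3348 and 5870 of the 12386 genes tested. The median log2 fold change of the tested chains was 0.16 at 1 h and -0.25 at 4 h, against -0.0049 and 0.0042 over all genes. Leaving out genes whose lower group did not reach the filter's minimum (10 counts in a library of median size) in all 4 libraries, 2 were higher and 3 lower of 12 at 1 h, and 2 higher and 7 lower of 12 at 4 h. The highest fold changes were those of the IL-1 receptors *Il1r1* and *Il1r2*, which are among the genes so left out: that minimum was reached by 3 of 4 untreated libraries for *Il1r1* and by 0 for *Il1r2*, which passed the filter through the treated libraries, so that it had to differ. *Il1r1*, the signalling receptor, went from a mean of 15.6 ± 7.07 normalized counts (SD, n = 4) to 62.6 ± 15.4 at 1 h and 595 ± 98.5 at 4 h (log2 fold change 2.00 and 5.25, adjusted p = 0.000121 and 8.50e-10). *Il1r2*, the decoy receptor that binds IL-1 without signalling, went from 5.76 ± 2.82 to 85.9 ± 13.4 and 181 ± 73.2 (log2 fold change 3.94 and 5.01, adjusted p = 1.94e-06 and 4.56e-08). For their shared partner *Il1rap* the log2 fold change was 0.19 at 1 h (adjusted p = 0.10) and 0.43 at 4 h (0.000305).

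The tested chains that bind gp130 cytokines were lower at 4 h. *Il6st*, which encodes gp130 itself, fell from a mean of 6052 to 3941 normalized counts at 1 h and to 2298 at 4 h (log2 fold change -0.62 and -1.40, adjusted p = 2.91e-05 and 3.32e-09). *Lifr*, the LIF receptor, had a log2 fold change of -0.27 at 1 h (adjusted p = 0.326) and -1.94 at 4 h (1.03e-06), and *Il6ra* -0.35 (0.00329) and -0.73 (1.8e-06). *Osmr*, the specific chain of the OSM receptor, did not pass the filter, with 11 counts or fewer in a library. Both IL-10 receptor chains were lower at 4 h, *Il10ra* by a log2 fold change of -0.32 (adjusted p = 0.00436) and *Il10rb* of -0.41 (2.00e-05). The TNF receptor *Tnfrsf1a* was higher at both times (0.27 and 0.37, adjusted p = 0.00105 and 2.92e-05) and *Tnfrsf1b* at 1 h (0.19, adjusted p = 0.0255). *Tgfbr1*, the type I receptor of TGF-β, was lower at 4 h (-0.73, adjusted p = 8.45e-06), as was the IL-12 receptor chain *Il12rb2* (-0.77, adjusted p = 0.00821).

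**Figure D4:**
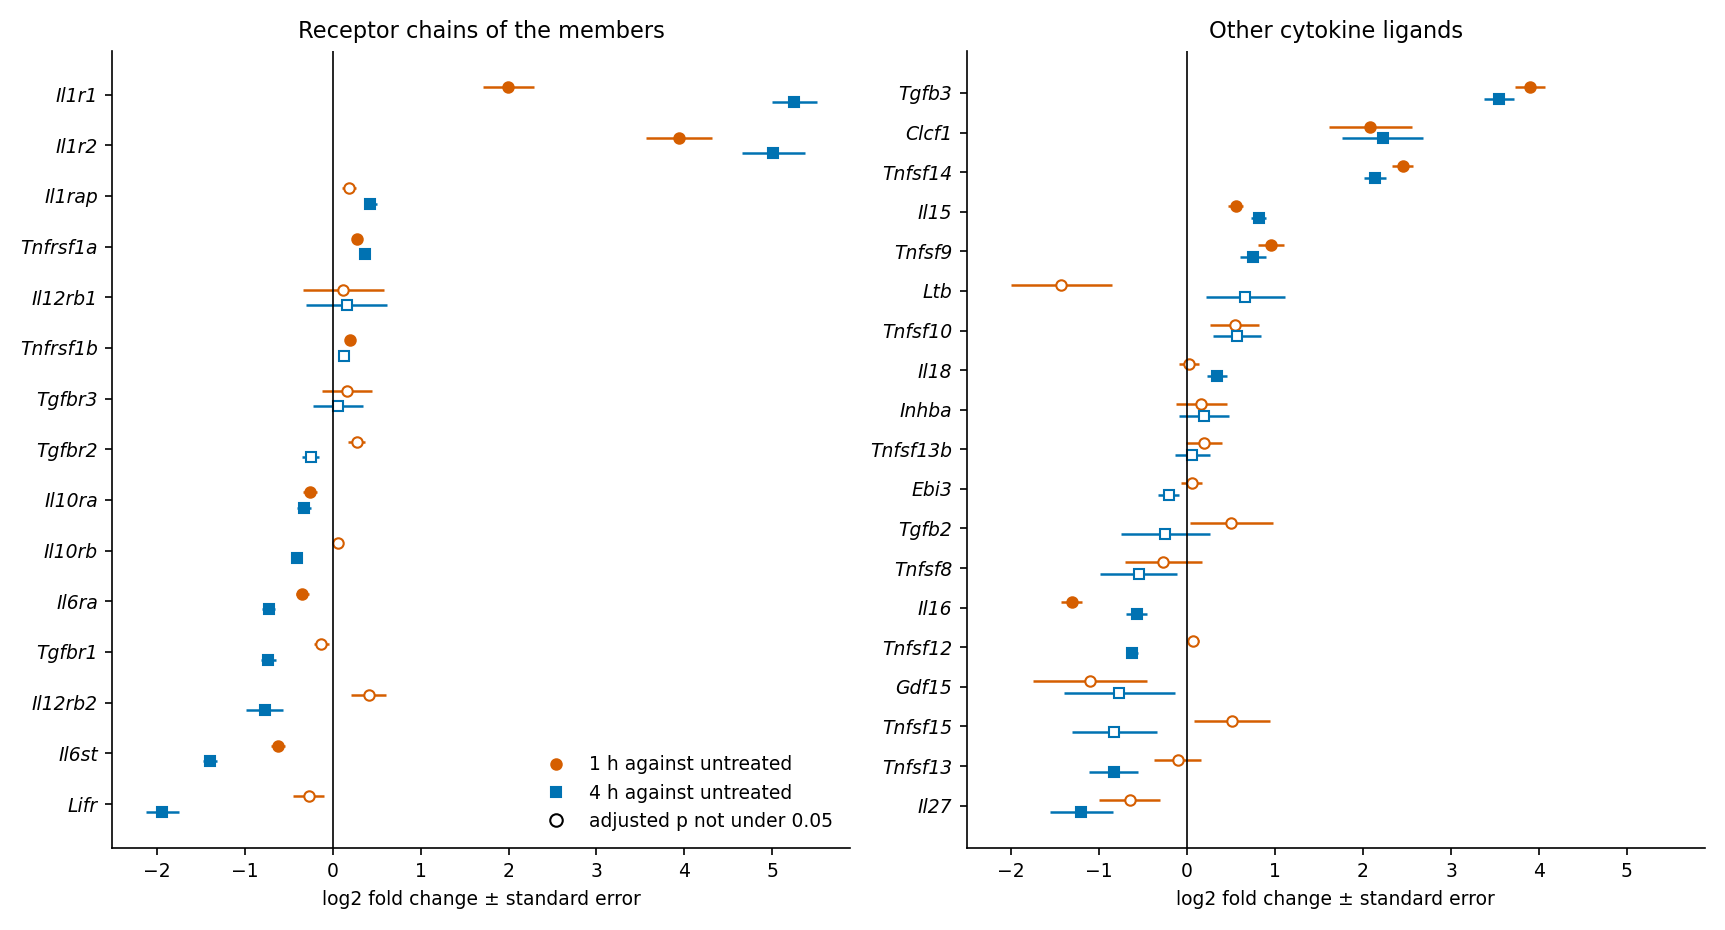
Log2 fold changes with standard errors (horizontal axis, edgeR) of the 15 tested receptor chains (left) and the 19 tested other ligands (right) at 1 h and 4 h against untreated BMDMs; filled symbols have an adjusted p under 0.05. *Il1r1* and *Il1r2* lie at 5.25 and 5.01 at 4 h and *Il6st* and *Lifr* at -1.40 and -1.94, and *Tgfb3* lies at 3.90 and 3.55.

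Among 14 genes for the processing, release or activation of these proteins, 13 were tested. At 1 h 2 were higher and 0 lower (1 lower at an unadjusted p under 0.05 by edgeR, 0 by DESeq2 and limma-voom before and after adjustment, and 1 called lower with scaling by library size only), and at 4 h 2 were higher and 5 lower (over all genes 20.1% and 40.0% were called). The median log2 fold change was 0.011 at 1 h and -0.042 at 4 h. Higher at 1 h were *Thbs1*, whose product thrombospondin-1 can activate latent TGF-β, with a log2 fold change of 6.26 at 1 h and 6.97 at 4 h (adjusted p = 1.61e-12 and 2.33e-12), and *Nlrp3*, the inflammasome sensor, with 0.99 at 1 h (adjusted p = 2.58e-07) and 0.16 at 4 h (0.121). *Adam17* fell at 4 h (log2 fold change -0.76, adjusted p = 1.07e-06), and *Casp1* had -0.25 (0.0451). *Itgav*, an integrin chain that binds latent TGF-β, was the other one higher at 4 h. The others lower at 4 h were *Nek7* and *Pycard*, which are inflammasome components, and *Furin*, a protease that cuts pro-TGF-β. At 4 h an adjusted p under 0.01 left 1 higher and 3 lower, and the count of 5 lower was also 3 without untreated mouse 1, untreated mouse 4, 4 h mouse 2 or 4 h mouse 3.

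Of 51 further cytokine ligands listed, which were of the same families or other interleukins, 50 were found in the table and 19 were tested. The other 31 had at most 16 counts in a library. At 1 h 5 were higher and 1 lower (2 lower in limma-voom, with the mouse as a block or without 1 h mouse 3), and at 4 h 6 were higher and 4 lower, beside 20.1% and 40.0% of all genes called. The 4 lower at 4 h became 2 at an adjusted p under 0.01 and among genes with a mean count of at least 50. The median log2 fold change of the 19 was 0.16 at 1 h and 0.059 at 4 h. *Tgfb3*, which encodes TGF-β3, rose from a mean of 34.0 ± 7.34 normalized counts to 505 ± 90.7 at 1 h and 395 ± 45.7 at 4 h (log2 fold change 3.90 and 3.55, adjusted p = 4.14e-10 and 9.05e-10). *Tnfsf14*, which encodes the TNF family ligand LIGHT, rose from 127 ± 22.6 to 694 ± 81.9 and 561 ± 45.1 (log2 fold change 2.45 and 2.14, adjusted p = 1.57e-09 and 4.97e-09). The others higher at 1 h were *Clcf1*, *Il15* and *Tnfsf9*. *Clcf1* reached the filter's minimum in 0 untreated libraries and *Il27* in 1 library at 4 h. Without genes whose lower group fell short of it, 4 were higher and 1 lower of 14 at 1 h, and 5 higher and 3 lower of 13 at 4 h. *Il16*, a chemoattractant of CD4+ cells, was lower, from 2364 to 952 and 1589 (log2 fold change -1.31 and -0.57, adjusted p = 1.53e-06 and 0.00136). *Il27*, *Tnfsf12* and *Tnfsf13* were the others lower at 4 h. *Il18*, the IL-1 family member that also needs caspase-1, was higher at 4 h (0.34, adjusted p = 0.0261), and *Ebi3*, a chain of IL-27, was not called at either time (adjusted p = 0.836 and 0.191).

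All 24 signal transducers and feedback inhibitors listed were tested. At 1 h 8 were higher and 3 lower, or 9 and 5 with the mouse as a block and 8 and 6 when libraries were scaled by size alone. At 4 h 9 were higher and 5 lower, and the latter count was 2 at an adjusted p under 0.01 and 3 without the filter on low counts or without untreated mouse 1, untreated mouse 2, 4 h mouse 2, 4 h mouse 3 or 4 h mouse 4. Of all genes, 20.1% were called at 1 h and 40.0% at 4 h. The median log2 fold change of the list was 0.053 and 0.036. Among those higher at both times were *Skil*, *Smad7*, *Smad6*, *Socs2*, *Stat3*, *Jak2* and *Irak2*, with *Smad3* higher at 1 h and *Stat4* at 4 h. Those lower at 1 h were *Traf2*, *Ripk1* and *Myd88*, which act below the TNF and IL-1 receptors, and those lower at 4 h were *Traf2*, *Smad2*, the kinases *Jak1* and *Tyk2*, and *Cish*. *Irak2*, which like *Myd88* acts below the IL-1 receptor, had a log2 fold change of 0.54 at 1 h and 0.26 at 4 h (adjusted p = 2.14e-05 and 0.00470), and *Irak1*, *Irak3*, *Irak4* and *Tradd* were not called at either time. Leaving out *Socs1*, *Socs2*, *Smad6* and *Cish*, whose lower group fell short of the filter's minimum, 6 were higher and 3 lower of 20 at 1 h, and 7 higher and 4 lower at 4 h. Among inhibitors of TGF-β signalling, *Skil* rose from a mean of 946 to 4162 normalized counts at 1 h and 1748 at 4 h (log2 fold change 2.14 and 0.89, adjusted p = 1.50e-10 and 1.04e-06), and *Smad7* from 38.1 to 143 and 59.0 (1.89 and 0.62, adjusted p = 3.67e-06 and 0.0215). *Stat4*, which transmits IL-12 signals, had a log2 fold change of 0.37 at 1 h (adjusted p = 0.0601) and 3.27 at 4 h (7.03e-11). *Socs3*, the inhibitor that gp130 signalling induces, had 0.40 at 1 h (adjusted p = 0.281) and -0.46 at 4 h (0.158).

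All 16 transcription factors listed were tested, of which 6 were higher and 4 lower at 1 h, and 6 were higher and 5 lower at 4 h, with 20.1% and 40.0% of all genes called. At 1 h 6 were lower with the mouse as a block and with scaling by library size only, beside the same number higher. Their median log2 fold change was 0.028 and 0.018. *Crem*, *Nfil3* and *Cebpb* rose at 1 h (log2 fold change 4.90, 4.41 and 3.05) and were still higher at 4 h (4.11, 2.35 and 1.82). *Crem* is a target and relative of CREB, *Nfil3* encodes a basic leucine zipper factor that represses *Il12b*, and *Cebpb* encodes C/EBPβ, an activator of *Il1b* and *Il6*. *Nfkbiz*, which encodes IκBζ, a cofactor of NF-κB at *Il6* and *Il12b*, was lower at both times (-0.92 and -1.0, adjusted p = 5.43e-05 and 1.14e-05). *Atf3*, a repressor of inflammatory genes, fell by 0.64 on the log2 scale at 1 h and by 1.85 at 4 h (adjusted p = 4.63e-06 and 7.03e-11). The others lower at both times were *Cebpa* and *Maf*, and *Nfkb1* was lower at 4 h. Of the same NF-κB group, *Nfkb2* (log2 fold change 0.50 and 0.27), *Rel* (0.86 and 0.22) and *Bcl3* (0.99 and 0.47) were higher at both times.

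For the 6 members with a mean of at least 50 normalized counts (*Il1b*, *Osm*, *Tnf*, *Il10*, *Il1rn* and *Tgfb1*), the most similar genes over the 12 libraries were found by the root mean square distance of log2 normalized counts from the untreated mean, among 10288 others with a mean of at least 50. Nearest to *Il1b* were *Fos* (distance 0.47) and *Vegfa* (0.50), and nearest to *Osm* were *Ets2* (0.37) and *Junb* (0.41). The log2 fold change of *Fos* was 4.13 at 1 h and 2.90 at 4 h, and that of *Junb* 3.49 and 0.90. *Tnf* was nearest to *Msrb2* (0.12) and *Abcg1* (0.15), and *Il10* to *Reps2* (0.22) and *Gpr162* (0.22). *Il1rn* was nearest to *Atg9b* (0.23) and *Psat1* (0.28), and *Tgfb1* to *2510039O18Rik* (0.057) and *Nop53* (0.067). Among these 6 members, *Tnf* and *Il10* were the nearest pair (0.42), and *Osm* was the nearest member to *Il1b* (1.23).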

How the data were processed

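According to the study's methods and processing notes, the authors made stranded libraries from mRNA, read 50 bases of each fragment from a single end, aligned the reads to GRCm38 with TopHat2 2.0.11 and counted genes with HTSeq 0.8.0. They deposited raw counts of 53379 genes in 12 libraries, with no normalization. The strand option and the annotation release are not given in the sources used here. Symbols, coordinates and exon lengths were taken from GENCODE M21 (53274 genes matched) and promoters from RefSeq.

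From the deposited counts, edgeR 4.0.16 in R 4.3.3 was used: filterByExpr on the 3 groups, TMM scaling, and the quasi-likelihood test in 1 fit over 12 libraries with a mean per group. The study used vsn with limma and named no covariate; counts call for edgeR here. Benjamini-Hochberg adjustment ran over 12386 genes in each comparison, and 0.05 was the threshold. Normalized counts are scaled to the mean library size. Exact intervals of count ratios cover counting error only.

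Libraries of 1 number come from 1 mouse by their titles, and their deviations from the group means correlated with r from 0.291 to 0.561 (12 pairs), against -0.300 to 0.0849 (36 pairs) for different mice. Deviations cancel within a group, so where values for the same mouse are positive, those for different mice are on average pushed negative. Between libraries of a group, counts differed by more than counting error in every pair (chi-square per degree of freedom 9.71 to 20.0).

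Alternatives were DESeq2 1.42.0, limma-voom (limma 3.58.1), RLE scaling, library size only, no filter, a filter at a mean count of 50, a fit of just the 2 groups, a threshold of 0.01, a block for the mouse and each library left out. The edgeR, DESeq2 and limma fits were tested on simulated counts.

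The members and the lists of receptors, processing genes, ligands, signalling genes, transcription factors and markers were chosen with earlier results of these data known. Named genes were all members, at most 4 per list and time called with a change of at least 2-fold and an average of at least 50 normalized counts, set partners (*Il12a*, *Il23a*, *Ebi3*, *Il18*, *Socs3*, *Nfkbiz*, *Casp1*, *Adam17* and receptor chains), and the 2 genes most like each member with at least that average. *Nlrp3*, *Nek7*, *Pycard*, *Furin*, *Itgav*, *Clcf1*, *Il15*, *Tnfsf9*, *Il27*, *Tnfsf12*, *Tnfsf13*, *Traf2*, *Ripk1*, *Myd88*, *Smad2*, *Jak1*, *Tyk2*, *Cish*, *Socs1*, *Socs2*, *Smad6*, *Smad3*, *Stat3*, *Jak2*, *Irak1*, *Irak2*, *Irak3*, *Irak4*, *Tradd*, *Cebpa*, *Maf*, *Nfkb1*, *Nfkb2*, *Rel* and *Bcl3* were named after their values were seen, to complete counts, and some listed genes are not reported here by name. Counts without genes whose lower group fell short of the filter's minimum were also added then. So were single markers of macrophages, neutrophils and stromal cells, and counts of receptor chains with the mouse as a block.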

Additional observations from a re-analysis of the deposited data

Results flagged for a closer look

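The effect of fenoterol differed between 4 h and 1 h, by edgeR's quasi-likelihood test of the difference, for 5 members. The log2 difference was -0.64 for *Tnf*, -1.35 for *Il1b*, -1.07 for *Il10*, -2.30 for *Osm* and -0.29 for *Tgfb1*, each lower at 4 h in 4 of 4 mice. Both times share the untreated libraries, so this equals the comparison of 4 h with 1 h.

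A sample stood apart from the other 3 of its group, by a gap larger than Dixon's 95% critical value for 4 samples, in 4 of 65 groups examined, where chance gives about 1 in 20. *Il1b* in untreated mouse 2 was at 112 normalized counts, and the other 3 mice were at 50.1 to 60.2. The remaining cases were mouse 2 at 4 h: *Il6st* (2600.0 normalized counts against 2172 to 2240), *Stat4* (948 against 733 to 748) and *Thbs1* (254842 against 214567 to 219739).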

How the results depend on the processing

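Of the 21 log2 fold changes of tested members, 16 were called, and 13 of these kept their direction and call in every alternative that could be fitted to them; *Il1a* at 4 h and *Tgfb1* at 1 h and between the times did not, as given in the report, and the cause was not tested. The count of members called at 1 h was 5, and 3 in the fit of only the 2 groups, where *Il1a* was not among the 6 members tested and *Tgfb1* missed the threshold; leaving out 1 library gave 4 to 5 at 1 h, 5 to 6 at 4 h and 5 to 5 between the times. With 1 library left out, 2 uncalled changes turned sign: *Il10* at 1 h (-0.17 to 0.030) and *Il1rn* between the times (-0.011 to 0.29). The mouse as a block changed no member's call other than that of *Tnf* at 1 h (adjusted p = 0.0174). An adjusted p under 0.01 and a mean count of at least 50 changed no count of members by over 1.5 times, but lowered counts of listed genes at 4 h, as given beside them in the report. *Il6*, *Il12b*, *Lif* and *Il1a* had 0 to 30 counts in a library, and how far depth limited their calls was not tested.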
